A study of Drosophila melanogaster with 4 samples.

Results

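3LHet is the assembled pericentric sequence of the left arm of chromosome 3 of *Drosophila melanogaster*, held apart from the euchromatic arm 3L in FlyBase release 5, the build named in the file headers. It measures 2555491 bp, written here as 2.56 Mb. Its members are the enriched regions that the authors' combined list places on 3LHet, chosen by sequence name and by the label of significant enrichment, and not by score. There are 249 of them among 10603 regions in the combined list. The list of replicate 1 has 265 regions on 3LHet and that of replicate 2 has 293. The files give only the name of the sequence, so its pericentric nature rests on the release and was not checked against repeats or chromatin marks, and which end of it faces the centromere was not used.

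The protein Su(var)3-7 was profiled by ChIP-seq, in which chromatin bound by a protein is precipitated with an antibody, here Q3448, and its DNA is sequenced. All material was Oregon-R, a wild-type laboratory strain, as embryos aged 14 to 16 h and fixed in 1.8% formaldehyde. There were 2 ChIP libraries and 2 input libraries, the inputs being genomic DNA of the same genotype and stage that was not immunoprecipitated, each the control of the ChIP library with its number. Whole embryos were used, so each list averages over all of their cell types, and the labels leave unsaid if the replicates come from separate collections.

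Su(var)3-7 is a zinc-finger protein that was found through mutations that suppress position-effect variegation, the patchy silencing of genes moved next to heterochromatin. It is known to bind HP1, the heterochromatin protein that recognises methylated lysine 9 of histone H3, and to act with Su(var)3-9, an enzyme that sets that mark. Pericentric heterochromatin flanks the centromeres, is rich in transposable elements and satellite repeats, and stays condensed through much of the cell cycle.

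Su(var)3-7 regions filled most of 3LHet. Replicate 1 covered 1.75 Mb, or 68.5% of its bases, and replicate 2 covered 1.44 Mb, or 56.3%, with a mean of 62.4% ± 8.65 (SD, n = 2). The combined list covered 1.92 Mb, or 75.0%. Both replicates therefore placed more of 3LHet inside regions than outside them, and replicate 1 placed more than replicate 2. With 2 libraries no test across samples was possible, and every comparison below is a description. Read counts are not among the listed values. Library depth is therefore unknown, and levels of binding carry no interval.

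3LHet was set beside sequences chosen as close to it in kind. It was covered over 68.5% and 56.3% in replicates 1 and 2. On 3RHet, the pericentric sequence of the right arm, the values were 49.9% and 33.0%. The proximal 5 Mb of 3L, the end of the euchromatic arm next to the centromere, was covered over 41.1% and 37.7%. Unplaced sequence U, which is rich in repeats, was covered over 19.5% and 13.2%. In both replicates 3LHet had the highest value of these 4, and replicate 1 exceeded replicate 2 on each of them. These differences were not tested. Other pericentric sequences were not compared, so no rank among them is given.

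Regions on 3LHet were both wide and closely packed. Median width on 3LHet was 4127 bp in replicate 1 and 3136 bp in replicate 2, with a mean of 3632 bp ± 701 (SD, n = 2). On 3RHet the medians were 2834 bp and 2401 bp, on the proximal 5 Mb of 3L they were 2663 bp and 2537 bp, and over all sequences they were 2125 bp and 2103 bp. Regions per Mb numbered 104 and 115 on 3LHet, 118 and 94.9 on 3RHet, and 88.2 and 93.4 on the proximal 5 Mb of 3L. They numbered 58.8 and 45.0 on U, and 43.6 and 45.1 over all sequences. The density of regions on 3LHet thus lay below that of 3RHet in replicate 1 and above it in replicate 2, and above that of the other sequences in both, while its median width was the largest in both.

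A share of each list set by rank puts these widths in context. A region counted as wide when it was among the top 10% of its whole list by width, which by construction holds 10.0% of all regions. On 3LHet 82 of 265 regions of replicate 1 (30.9%) and 78 of 293 of replicate 2 (26.6%) passed, and 108 of 249 of the combined list (43.4%). Regions of 10 kb or more numbered 47, 33 and 56 in replicate 1, replicate 2 and the combined list, or 17.7%, 11.3% and 22.5% of them. Over all sequences such regions made up 5.10%, 3.40% and 4.09% of the 3 lists. On the proximal 5 Mb of 3L 19.7%, 19.3% and 22.0% passed by rank, and 11.6%, 7.07% and 11.1% reached 10 kb. On 3RHet 15.2%, 10.5% and 19.5% passed, and 6.06%, 3.77% and 7.96% reached 10 kb. On U 8.12%, 8.41% and 8.74% passed, and 2.88%, 1.77% and 2.77% reached 10 kb. Wide regions were thus a larger share than in the whole lists on the proximal 5 Mb of 3L and 3RHet too, though most so on 3LHet.

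The authors gave each region a score of enrichment whose scale is not stated, so values are not compared between lists, and a mean over the replicates only sums up their medians. Replicate 1 had a median score of 1.14 on 3LHet and replicate 2 of 0.996, a mean of 1.07 ± 0.104 (SD, n = 2). That of the combined list was 0.970. Over all sequences the medians were 0.628, 0.718 and 0.433. In the top 10% of its whole list by score, again 10.0% of all regions, were 89 regions of replicate 1 on 3LHet (33.6%), 72 of replicate 2 (24.6%) and 100 of the combined list (40.2%). High-ranking scores were thus a larger share on 3LHet than in each whole list. The same held on U, where 29.9%, 35.0% and 39.6% of regions passed, and where the replicate 2 median of 1.07 was above that on 3LHet. It held to a lesser degree on 3RHet, with 10.8%, 15.1% and 18.9%, and on the proximal 5 Mb of 3L, with 14.5%, 13.3% and 15.2%.

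Widths on 3LHet spread over a wide range. The widest region of the combined list lay on it, but those of replicate 1 (76800 bp) and replicate 2 (39945 bp) lay elsewhere. On 3LHet the narrowest region of replicate 1 was 1303 bp and the widest 65837 bp, with the central 50% between 2119 and 7925 bp. In replicate 2 the range was 1303 to 25214 bp and the central 50% lay between 2060 and 6056 bp. In the combined list the range was 1001 to 91853 bp and the central 50% lay between 2387 and 9238 bp. The lower quartiles of the replicates were close to each other, and they parted toward the wide regions.

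A few wide regions carried much of the coverage. In the combined list the 44 widest regions, 17.7% of the 249, held 50% of the covered bases, and the 10 widest held 19.3%. The same 50% lay in 46 regions of replicate 1 (17.4%) and in 58 of replicate 2 (19.8%). Coverage of 3LHet was therefore unevenly shared among regions in all 3 lists.

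**Figure D1:**
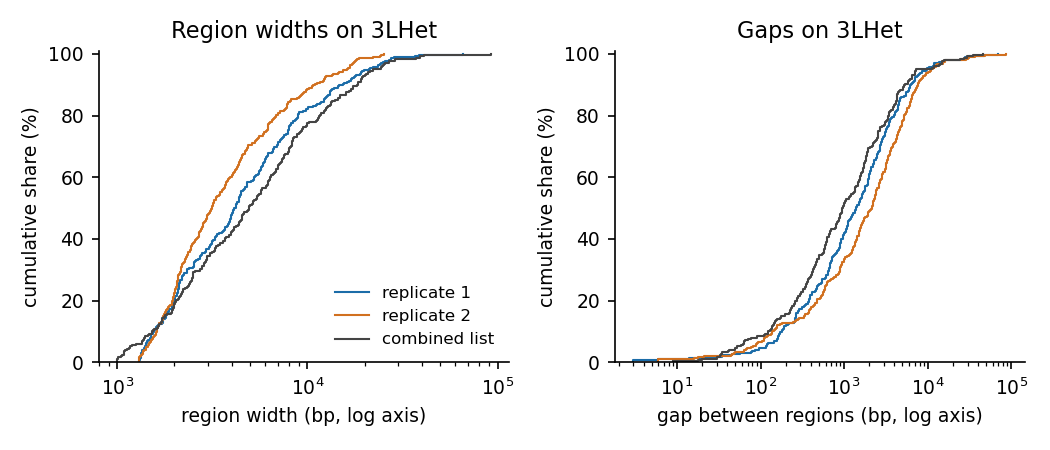
Cumulative share of regions by width (left, bp on a log axis) and of gaps between consecutive regions by length (right, bp on a log axis) on 3LHet, for replicate 1, replicate 2 and the combined list. The combined list has the widest regions (median 4903 bp) and the shortest gaps (median 957 bp), and replicate 2 has the narrowest regions (3136 bp) and the longest gaps (2134.5 bp).

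Regions were separated by short gaps. The median gap measured 1405.5 bp for replicate 1, 2134.5 bp for replicate 2 and 957 bp for the combined list. Gaps under 500 bp made up 67 of 264 in replicate 1 (25.4%), 60 of 292 in replicate 2 (20.5%) and 84 of 248 in the combined list (33.9%). Joining regions across such gaps would leave 198, 233 and 165 regions. Many neighbouring regions were thus listed apart although less sequence lay between them than the narrowest region holds.

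Long gaps were few and held much of the uncovered sequence. Gaps of 10 kb or more numbered 12 in replicate 1, 18 in replicate 2 and 12 among the combined regions, and they held 36.4%, 37.4% and 40.5% of the uncovered bases. Stretches with no region in any of the 3 lists came to 629633 bp, or 24.6% of 3LHet. Of these, 12 stretches were at least 10 kb long and together measured 258830 bp, which is 41.1% of the empty sequence. Outside those 12 stretches coverage was 76.3% for replicate 1, 62.7% for replicate 2 and 83.4% for the combined list.

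The 5 widest gaps of the combined list were empty in both replicates too. They ran from 2328412 to 2374752 (46341 bp), from 116792 to 151883 (35092 bp), from 2161011 to 2190315 (29305 bp), from 24309 to 51794 (27486 bp) and from 1456934 to 1481321 (24388 bp). The edges of the first recurred closely, since replicate 1 left 2328215 to 2375375 free (47161 bp) and replicate 2 left 2328210 to 2376307 free (48098 bp). Whether these stretches hold sequence to which reads could be assigned was not tested. Only 9729 bp of 3LHet lay in a replicate and not in the combined list. Gaps of the combined list were thus almost bound to be empty in the replicates.

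Coverage was uneven along 3LHet. In consecutive 250 kb windows from the low-coordinate end, the first was the lowest, with 37.2% for replicate 1, 30.1% for replicate 2 and 42.1% for the combined list. The second was the highest, at 86.3%, 73.1% and 89.7%. Between windows 3 and 7 the mean of the replicates stayed between 66.2% and 71.9%. It was lower in window 8 (50.2% ± 16.9), window 9 (52.2% ± 9.30) and window 10 (61.8% ± 7.88) (SD, n = 2). The highest and lowest windows differed by 46.1 percentage points, which exceeds the 7.11 to 24.0 points by which replicate 1 exceeded replicate 2 in single windows. In the 5 full windows of 500 kb the range was 12.4 points and the replicates differed by 10.05 to 16.5 points. At that scale the range did not exceed the largest difference between replicates. Replicate 1 was higher in all 5, so these are differences in level and do not measure how the profiles differ. Within replicates 1 and 2 the range was 13.5 and 12.9 points, and their coverages had a Spearman rho of 0.8.

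The 2 replicates ranked the windows alike. Over the 10 full windows of 250 kb their coverages had a Spearman rho of 0.927, and over the 25 full windows of 100 kb a rho of 0.905. Replicate 1 was higher in all 10 and in all 25. Median scores per 100 kb window had a rho of 0.798 between replicates. In the combined list, coverage and median score had a rho of 0.0377 over the 25 windows of 100 kb, 0.442 over the 10 of 250 kb and -0.1 over the 5 of 500 kb. These values carry no interval, and with so few windows neither a relation nor its change with window size can be read from them. Neighbouring windows share regions that cross their edges, and both quantities come from the same lists.

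**Figure D2:**
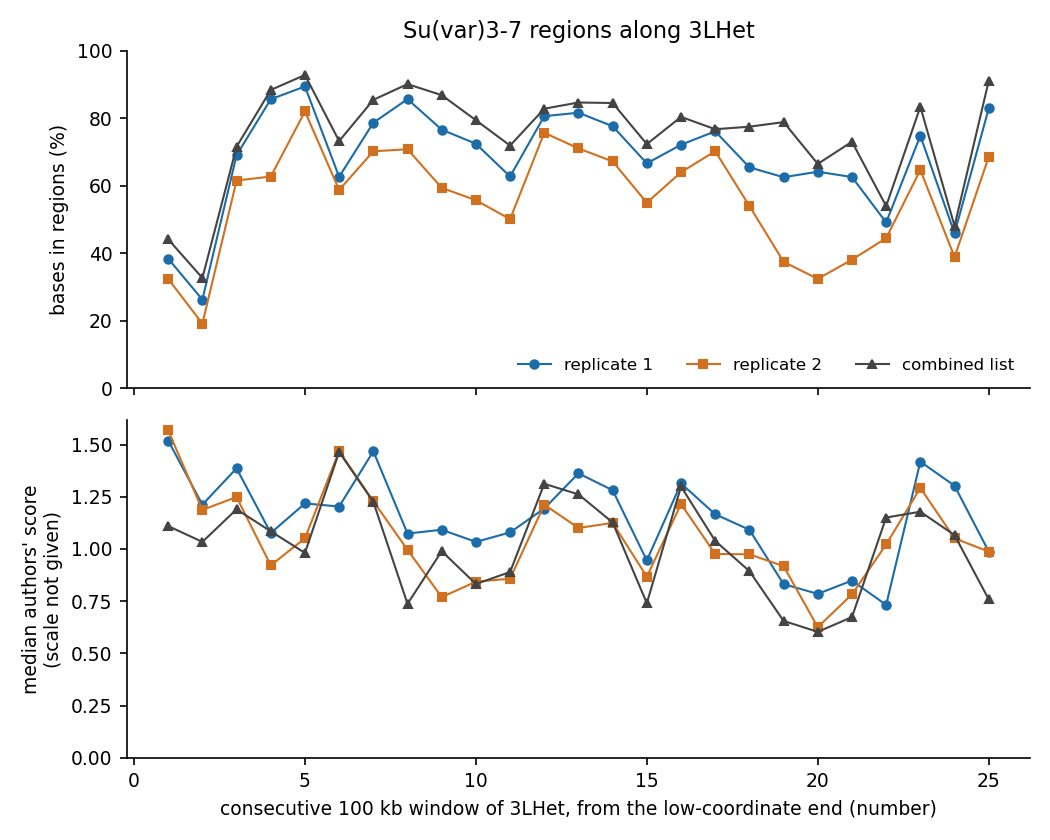
Coverage (upper panel, percent of bases inside regions) and median authors' score (lower panel, scale not given) in the 25 full windows of 100 kb of 3LHet, numbered from the low-coordinate end, for replicate 1, replicate 2 and the combined list. Window 2 has the lowest coverage in all 3 lists (26.3%, 19.1% and 32.7%), and window 5 the highest (89.4%, 82.0% and 92.8%).

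The sparse low-coordinate end held several of the long empty stretches. The first 200 kb were covered over 32.3% in replicate 1 and 25.75% in replicate 2. Of the 12 stretches of at least 10 kb that no list covered, 6 began in the first 250 kb. The regions that were present there did not score low, with medians of 1.43 over 14 regions in replicate 1 and 1.37 over 10 regions in replicate 2, both above the list's median on 3LHet. The sequence began inside a region all the same: the first covered base was 18 for replicate 1, 12 for replicate 2 and 4 for the combined list.

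The replicates differed most between 1.8 and 2.1 Mb, a belt chosen after its values were seen. Replicate 1 covered 63.1% of it and replicate 2 covered 36.0%, a difference of 27.1 percentage points. From 200 kb to 1.8 Mb the values were 75.2% and 64.3%, and from 2.1 Mb to the end they were 64.7% and 55.2%. The belt is 11.7% of 3LHet and held 25.7% of the bases found in replicate 1 and not in replicate 2. Its regions were narrow and low in score in all 3 lists, with median widths of 2519 bp, 2062 bp and 3160.5 bp and median scores of 0.803, 0.736 and 0.647. Of the 46 replicate 1 regions centred in the belt, 26 (56.5%) met a replicate 2 region, against 137 of 157 (87.3%) from 200 kb to 1.8 Mb, 10 of 14 (71.4%) in the first 200 kb and 39 of 48 (81.25%) from 2.1 Mb to the end.

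The second comparison set the replicate lists against each other, region by region and base by base. Nearly every replicate 2 region had a counterpart: 290 of 293 (99.0%, 95% Wilson interval 97.0 to 99.7) shared at least 1 bp with replicate 1, against 79.5% of replicate 2 regions over all sequences. In the other direction 212 of 265 (80.0%, 74.8 to 84.4) had a counterpart, against 75.8% over all sequences. For replicate 2 the share was 98.3% on 3RHet, 89.1% on the proximal 5 Mb of 3L and 91.4% on U. For replicate 1 it was 64.3%, 81.4% and 62.1% on the same sequences. A near-complete match of replicate 2 was thus found on 3RHet too. With an overlap of at least 50% of both regions the shares on 3LHet were 57.3% of replicate 2 and 63.4% of replicate 1, which turns the order of the replicates. The intervals cover counting error alone and treat neighbouring regions as independent, which they are not. Regions of the other list covered 68.5% and 56.3% of 3LHet, so many regions would meet one wherever they lay, and shares on so densely covered a sequence cannot be read like those of the whole genome.

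By bases, replicate 2 lay almost wholly inside replicate 1. The lists shared 1411866 bp, which is 98.1% of the bases of replicate 2 and 80.6% of those of replicate 1. The Jaccard index, shared bases over bases in either list, was 0.794. It was 0.622 on 3RHet, 0.763 on the proximal 5 Mb of 3L and 0.594 on U. Denser coverage by itself raises the index, and 3LHet was the most covered of them. The values therefore do not rank the agreement of the replicates. Bases found in replicate 1 alone came to 339909 bp, or 13.3% of 3LHet, and bases in replicate 2 alone to 27204 bp, or 1.06%.

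The sequence that replicate 1 added lay mainly at the edges of shared regions. Of its 339909 bp, 50.3% lay outward from the outermost replicate 2 counterpart of a region, 21.2% lay between counterparts inside 1 region, and 28.6% lay in regions with no counterpart. It came in 458 stretches with a median of 364.5 bp, of which 138 reached 1000 bp. The widest was 825526 to 831906 (6381 bp), inside a replicate 1 region of 23557 bp that met 2 replicate 2 regions. Next came 1971730 to 1978065 (6336 bp) and 358182 to 363365 (5184 bp), also inside regions with counterparts. The remaining pair, 1890255 to 1894219 (3965 bp, score 0.557) and 183189 to 187126 (3938 bp, score 0.948), were whole regions that replicate 2 lacked.

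Replicate 1 regions without a counterpart were narrow and low in score. The 53 of them had a median width of 1712 bp and a median score of 0.677, against 5296 bp and 1.21 for the 212 with one. Their widths ran from 1303 to 3965 bp and their scores from 0.264 to 2.26. The highest score among them belonged to 732367 to 734236 (1870 bp), which was the second-highest of all replicate 1 regions on 3LHet and is named here after its value was seen. An overlap of at least 1 bp is less likely for a narrow region by construction, and narrow regions scored lower in each list. The contrasts in width and score were not separated from this.

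Replicate 2 had 3 regions that replicate 1 lacked. They were 1771925 to 1774371 (2447 bp, score 1.08), 1858711 to 1860217 (1507 bp, score 2.00) and 1811485 to 1812843 (1359 bp, score 0.951). All 3 lay between 1.75 and 2 Mb, in window 8 of 250 kb. The other 2 of the 5 widest stretches found in replicate 2 alone were parts of regions with counterparts, at 1704396 to 1706192 (1797 bp) and 1396046 to 1397321 (1276 bp).

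Wide replicate 1 regions were often split in replicate 2. Of the 212 replicate 1 regions with a counterpart, 152 met 1 replicate 2 region and 60 met 2 or more, up to 8, and those 60 had a median width of 9988.5 bp. The reverse was rarer, with 8 replicate 2 regions that met 2 in replicate 1. The widest replicate 1 region, 368826 to 434662 (65837 bp, score 1.30), met 8 in replicate 2. The widest replicate 2 region, 1187815 to 1213028 (25214 bp, score 1.26), met 1 in replicate 1, and the combined list has it as 1187634 to 1213296 (25663 bp). Splitting was thus seen in the widest region of replicate 1 but not in that of replicate 2. A wider region tends to meet more regions of the other list by construction, and the share split over all sequences was not computed.

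Where 1 region met 1 region, scores and widths ranked similarly. Over 142 such pairs the scores had a Spearman rho of 0.855 and the widths a rho of 0.869, across regions that share a sequence and are not independent replicates. Replicate 1 was the wider member in 122 of the pairs (85.9%), and in 89 it enclosed the replicate 2 region entirely. Median widths were 4219 bp and 3140 bp. Starts differed by a median of 169.5 bp and ends by 216.5 bp, and both edges were at most 100 bp apart in 18 pairs (12.7%). The broad placement of regions was therefore shared more closely than their exact edges.

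**Figure D3:**
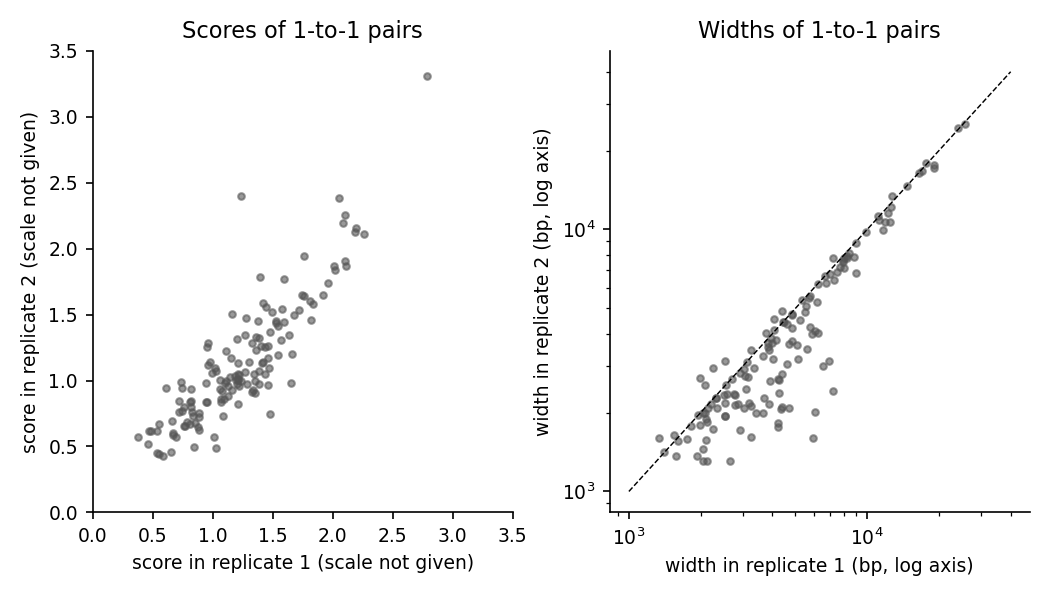
Authors' score (left, scale not given) and width (right, bp on log axes, dashed line at equal width) of the 142 pairs in which 1 replicate 1 region met 1 replicate 2 region on 3LHet, each point 1 pair. Most points in the right panel lie below the line, since replicate 1 was wider in 122 pairs.

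Narrow regions scored lower than wide ones in each list. Across regions, the Spearman rho of width and score was 0.470 for replicate 1, 0.524 for replicate 2 and 0.480 for the combined list. With the combined list cut into 4 classes of near-equal size by width, the narrowest class, 63 regions of 1001 to 2387 bp, had a median score of 0.648. The medians of the next classes were 0.856, 1.02 and 1.24, and the widest class held 62 regions of 9351 to 91853 bp and 60.7% of the covered bases. Cut into 4 such classes at their own widths, the replicate lists had medians of 0.666, 1.06, 1.18 and 1.38 in replicate 1 and of 0.682, 0.976, 1.05 and 1.25 in replicate 2. The score is 1 value per region and the way it was averaged within a region is not known.

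The last comparison concerned the 249 regions of the combined list. Of these, 179 overlapped both replicates (71.9%, 95% Wilson interval 66.0 to 77.1), against 38.6% of combined regions over all sequences. A further 40 overlapped replicate 1 alone (16.1%, against 12.1% over all sequences), and 2 overlapped replicate 2 alone (0.803%, against 10.6%). Another 28 overlapped neither (11.2%, 7.90 to 15.8), against 38.7% over all sequences. Of the covered bases, 92.8% belonged to regions in both replicates and 2.15% to regions in neither. The combined list was made from the same libraries, so these shares do not test it.

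The classes differed in width and in score. Regions in both replicates had a median width of 7103 bp and a median score of 1.02. Regions in replicate 1 alone had medians of 2006 bp and 0.480, and the 2 in replicate 2 alone were 2483 and 2506 bp wide with scores of 0.753 to 0.780. Regions in neither replicate had the smallest median width, 1372.5 bp, but a median score of 0.788, above that of regions in replicate 1 alone. It lay below the median of regions in both replicates.

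**Figure D4:**
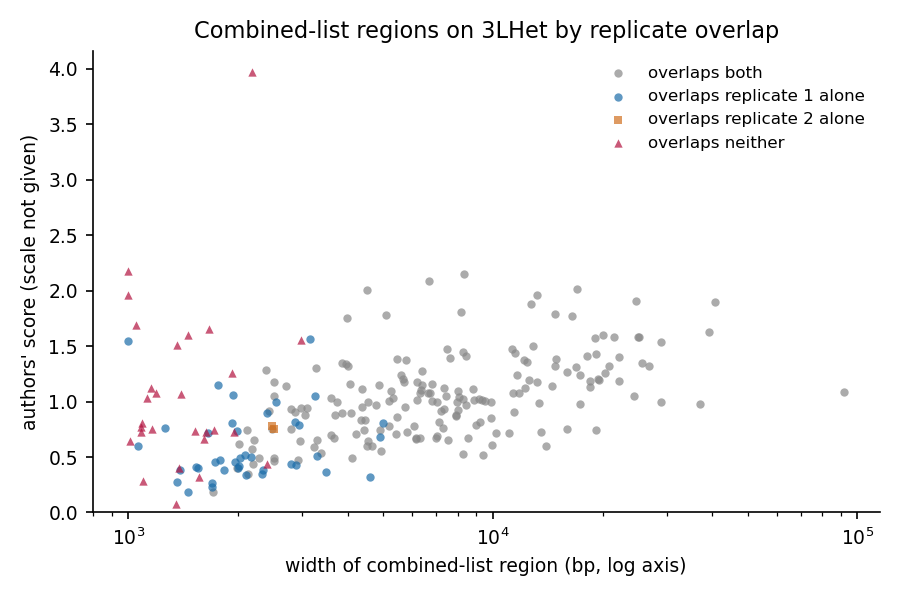
Width (bp, log axis) against the authors' score (scale not given) for the 249 combined-list regions on 3LHet, marked by whether they overlap both replicates, 1 of them or neither. Regions in neither replicate are narrow, from 1001 to 2980 bp, and span scores from 0.0748 to 3.97.

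Of combined regions over all sequences, whatever their score, 38.7% overlapped neither replicate. The share among those above 1.5 was not computed there. On 3LHet, 8 of the 30 combined regions with scores above 1.5 had no counterpart in either replicate. The highest-scoring region of all on 3LHet, 616576 to 618762 (2187 bp, score 3.97), was one of them, and lay 255 bp from the nearest replicate 1 region and 293 bp from the nearest of replicate 2. The second, 537866 to 538866 (1001 bp, score 2.18), lay 1111 and 889 bp from them, and the eighth, 1125512 to 1126512 (1001 bp, score 1.96), lay 830 and 874 bp away. Among all 28 regions in neither replicate, 13 lay within 500 bp of a replicate region, and the median distance was 552 bp. Gaps had medians of 1405.5 bp in replicate 1 and 2134.5 bp in replicate 2, so short distances follow largely from the packing of regions. At the top score of the combined list on 3LHet, neither replicate thus lists a region.

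The remaining 7 of the 10 highest-scoring regions overlapped both replicates. The third, 2236464 to 2244804 (8341 bp, score 2.15), had counterparts of 8211 and 7796 bp with scores of 2.26 in replicate 1 and 2.11 in replicate 2. The fourth, 660298 to 666967 (6670 bp, score 2.09), had counterparts of 6630 and 6615 bp with scores of 2.10 and 2.26. The sixth, 1510150 to 1514664 (4515 bp, score 2.00), had counterparts of 4491 and 4417 bp with scores of 2.10 and 1.91. These 3 regions kept their extent to within 1000 bp in both replicates.

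The other 4 were wider. Ranked 7, 2397176 to 2410430 (13255 bp, score 1.96), met 1 region of 12709 bp in replicate 1 and 1 of 13432 bp in replicate 2. Ranked 5, 2435710 to 2452743 (17034 bp, score 2.02), met 3 regions in replicate 1 and 2 in replicate 2. Ranked 9 and 10, 1273889 to 1298615 (24727 bp, score 1.91) and 693468 to 734247 (40780 bp, score 1.90), met 1 and 2 regions in replicate 1 and 2 and 4 in replicate 2. The latter was also the second-widest on 3LHet, and the only region found among both the 10 highest-scoring and the 10 widest.

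Both replicates had their own highest score at the same place, 498483 to 501025 in replicate 1 (2543 bp, score 2.79) and 498837 to 501004 in replicate 2 (2168 bp, score 3.31). In the combined list this stretch lies inside 497511 to 509718 (12208 bp), whose score of 1.37 ranks 44 of 249. The top of the ranking therefore differed between the replicate lists and the combined one. These replicate regions are named here after their values were seen.

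The widest region of the combined list, 342797 to 434649 (91853 bp, score 1.08), ranked 89 of 249 by score. Replicate 1 had it as 3 regions of 4829, 19935 and 65837 bp with scores of 1.46, 1.06 and 1.30, and they covered 98.6% of it. Replicate 2 had it as 13 regions of 1459 to 17874 bp, which covered 79.7% of it. Of these 13, 12 scored between 0.665 and 1.35, and 366129 to 368110 (1982 bp) scored 2.86, the second-highest score of replicate 2 on 3LHet. The widest stretch of enrichment on 3LHet was thus nearly continuous in replicate 1 and interrupted in replicate 2.

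The other 9 of the 10 widest regions all overlapped both replicates and measured 24960 to 40780 bp. Their scores ran from 0.975 at 1608460 to 1645531 (37072 bp) to 1.90 at 693468 to 734247 (40780 bp). In replicate 1, 7 of these 9 met a single region, and in replicate 2, 2 of them did, at 1187634 to 1213296 (25663 bp) and 542764 to 567723 (24960 bp). The third-widest, 577125 to 616313 (39189 bp, score 1.63), met 3 regions in replicate 1 and 4 in replicate 2, and the next region of the combined list after it is the highest-scoring one.

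The 5 lowest-scoring combined regions were all narrow. They scored 0.0748 at 2282315 to 2283668 (1354 bp), 0.185 at 1327230 to 1328685 (1456 bp), 0.186 at 991110 to 992821 (1712 bp), 0.229 at 208478 to 210172 (1695 bp) and 0.268 at 789170 to 790867 (1698 bp). The first met no replicate region, the third met both replicates, and the other 3 met replicate 1 alone. Low rank in the combined list thus did not by itself mean absence from the replicates.

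The combined list followed replicate 1 more closely than replicate 2 on 3LHet. It met 264 of 265 replicate 1 regions and all 293 replicate 2 regions, and the single one it lacked was 2204128 to 2205582 (1455 bp, score 0.543). Over 174 pairs in which 1 combined region met 1 replicate 1 region, scores had a Spearman rho of 0.966 and starts and ends differed by medians of 65 and 78.5 bp. Over 114 such pairs with replicate 2 the rho was 0.827 and the medians were 263 and 350.5 bp. Combined regions met 2 or more replicate 1 regions in 38 cases and 2 or more replicate 2 regions in 67. How the authors weighted the replicates in making the combined list is not given in the sources used here.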

How the data were processed

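The files hold the authors' lists of significantly enriched regions, 1 per ChIP replicate and 1 combined, with positions in FlyBase release 5 per the file headers. The deposited value of each region is a score, which the authors computed on a scale that no source at hand states. The submitters' processing notes name Bowtie 0.12.7 as the aligner. The region caller, its limits, the treatment of reads that match repeats and the making of the combined list: not given in the sources used here. Each could change the number and width of regions in repeat-rich sequence. The input libraries enter only through the authors' calls.

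Rows on 3LHet labelled as enriched were kept, with no filter on score or width. Coverage, widths, gaps (uncovered bases between consecutive regions), overlaps of at least 1 bp and Spearman correlations were computed with Python 3.11.15, numpy 2.4.6, pandas 2.3.3 and scipy 1.17.1, and the functions were tested on simulated lists. Regions belong to the window, belt or proximal 5 Mb of 3L that holds their centre. All sequences means the genome without Uextra.

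Named regions are the 10 highest-scoring, 10 widest and 5 lowest-scoring combined regions, the 5 widest gaps, the widest region of each replicate and the 5 widest stretches found in 1 replicate alone. Members and measures were chosen with earlier results of these data known. Genes and sequences are not given, since only a table of release 6 was at hand. Alternatives were a stricter overlap, the higher-scoring 50%, merging across gaps under 500 bp, other windows, means over bases, a width minimum and each replicate alone.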

Additional observations from a re-analysis of the deposited data

How the results depend on the processing

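Of 34 values under alternative settings for 11 results, 16 stayed within the replicate SD or counting interval of the reported value and 18 moved. For combined coverage and the Jaccard index the interval counted single bases as independent, which they are not, and was very narrow. Shifts from 75.0% to 75.7% and from 0.794 to 0.795 therefore counted as moved. A shift of replicate coverage from 62.4% to 56.3% did not. The counts of 16 and 18 thus do not measure stability. The 11 results are levels without a sign. With the higher-scoring 50% of each list, coverage was 41.9% (mean of the replicates) and 54.6% (combined), median width 5113 bp, the share of replicate 2 regions with a counterpart 83.7% and the Jaccard index 0.673. With regions under 500 bp apart merged, combined coverage was 75.7%, median width 4822 bp and the index 0.795. With 50% reciprocal overlap, 63.4% of replicate 1 and 57.3% of replicate 2 regions had a counterpart, and 47.8% of combined regions met both replicates and 18.9% neither, so the replicate 2 share was then the lower one. A stricter overlap and fewer regions match less by construction. Averaged over covered bases, the score was 1.27 (replicates) and 1.16 (combined). The range of coverage over windows was 63.0 points with 100 kb and 12.4 with 500 kb, where it no longer exceeded the largest difference between replicates. Leaving out each replicate in turn gave coverage of 56.3% to 68.5%, median widths of 3136 to 4127 bp, median scores of 0.996 to 1.14, window ranges of 43.0 to 49.2 points, 72.7% to 88.0% of combined regions matched and 12.0% to 27.3% unmatched. A mean of 2 cannot move by 1 SD when 1 is left out, and a minimum width of 1000 bp removed no region, so neither tests stability. No paired analysis was possible because the inputs, which share the replicate numbers, have no values in the lists.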
